A study of Mus musculus with 6 samples.

Results

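The vacuolar proton pump (V-ATPase) is the enzyme that acidifies endosomes, lysosomes and phagosomes. This account describes 10 of its genes: *Atp6v0a1*, *Atp6v0a2*, *Tcirg1*, *Atp6v0d1*, *Atp6v0d2*, *Atp6v1a*, *Atp6v1b2*, *Atp6v1c1*, *Atp6v1h* and *Atp6ap1*. They are a list of names drawn up with earlier results of these data known, and each has a probe set annotated to that gene alone. All 10 were measured, by 11 probe sets, among 19938 genes measured in all. A further 16 subunit genes of the same enzyme were measured and are given beside them.

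Starry-sky tumor-associated macrophages (SS-TAMs) were compared with tingible-body macrophages of normal germinal centers (GCMs), their regular counterparts in the tissue from which Burkitt's lymphoma arises. SS-TAMs came from BL2 cells, a line of human Burkitt's lymphoma, grown under the skin of female BALB/c SCID mice, which lack functional T and B lymphocytes, and were taken at a tumor size of 1.44 cm2. GCMs came from the germinal centers of female BALB/c mice that carried a CSF1R EGFP transgene, in which the *Csf1r* promoter drives a green reporter in mononuclear phagocytes, and that had received 2 doses of sheep red blood cells. Mice of both groups were 6 to 12 weeks old. Frozen sections were stained for CD68 to find the tumor macrophages, and 1000 cells per tissue were cut out by laser. Each group had 3 arrays, labeled as biological replicates. For GCMs the tissue label gives spleen, whereas the source label gives lymph nodes. Host strain, transgene, tissue, red blood cell doses, human tumor cells nearby and the means of finding the cells all differed between the groups. Their parts in any difference cannot be told apart. Signal of human transcripts on the mouse probe sets was not tested.

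The V-ATPase has a membrane sector, V0, that conducts protons, and a cytosolic sector, V1, that hydrolyzes ATP to drive them. The large V0 a subunit forms the proton path and exists as several isoforms that direct the enzyme to different membranes, and the d subunit couples the rotor to V1. In macrophages the pump lowers the pH of maturing phagosomes, in which engulfed cells are degraded, and in osteoclasts the a3 and d2 isoforms serve bone resorption.

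The promoters of 5 of the 10 genes were in the RefSeq sequence table used here (GRCm38.p6), and these sequences were searched for 2 runs of letters. CACGTG is the E-box core, and TCACGTGA, which contains it, is the center of the CLEAR motif bound by TFEB and related regulators of lysosomal genes. Both read the same on either strand. The following 3 windows, from 150 bases before to 20 after the annotated start, are shown because 2 of them hold TCACGTGA, in capitals, and because the third belongs to the gene with the largest difference among the 10 and holds neither run.

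Atp6v0d1: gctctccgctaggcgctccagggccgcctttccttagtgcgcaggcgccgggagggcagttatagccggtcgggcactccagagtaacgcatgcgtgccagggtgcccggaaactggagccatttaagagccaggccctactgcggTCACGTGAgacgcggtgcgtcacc

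Atp6v1a: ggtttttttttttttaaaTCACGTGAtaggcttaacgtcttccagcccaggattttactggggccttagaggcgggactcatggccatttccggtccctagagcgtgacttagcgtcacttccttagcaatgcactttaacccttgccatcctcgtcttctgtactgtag

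Atp6v0a1: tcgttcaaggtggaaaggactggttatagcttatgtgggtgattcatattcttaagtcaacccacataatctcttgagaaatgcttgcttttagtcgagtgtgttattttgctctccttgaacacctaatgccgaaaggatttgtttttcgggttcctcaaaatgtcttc

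The *Atp6v0d1* window is chr8:105566045-105566214 on the minus strand, and its TCACGTGA begins 4 bases before the start. The *Atp6v1a* window is chr16:44139240-44139409 on the minus strand, with the run beginning 132 bases before the start. The *Atp6v0a1* window is chr11:101010248-101010417 on the plus strand. Over the full windows of 250 bases before to 50 after the start, 2 of 5 genes (2 of 7 windows, 28.6%) held TCACGTGA, and the share of all 32851 windows was 0.974%. CACGTG occurred in the same 2 genes and in 7.15% of all windows. The windows of *Tcirg1*, which has 3 annotated starts, and of *Atp6ap1* held neither. Among the other subunits 14 genes had windows. *Atp6v0e* held TCACGTGA, beginning 2 bases after the start, and *Atp6v0b* held CACGTG at 2 places. These are matches of letters, and no binding was measured.

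Transcripts of the listed pump genes were more abundant in SS-TAMs than in GCMs. Of the 10, 9 passed the test as higher (limma, Benjamini-Hochberg adjusted p under 0.05 over 19938 genes), none was lower, and *Atp6v0a2* did not pass. Over all genes the test called 5.16% higher and 4.74% lower. In each of the 10 genes all 3 SS-TAM arrays lay above all 3 GCM arrays, an order that 18.5% of all genes showed. The median log2 fold change of the 10 was 1.26, compared with 0.041 over all genes. These directions hold on the deposited scale, in which medians of the 6 arrays were alike, and relative to a scale set by macrophage markers 6 of the 10 turned, as given further on. Leaving out dim probe sets kept the count at 9, where 8.42% of 10643 genes were called higher.

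**Figure D1:**
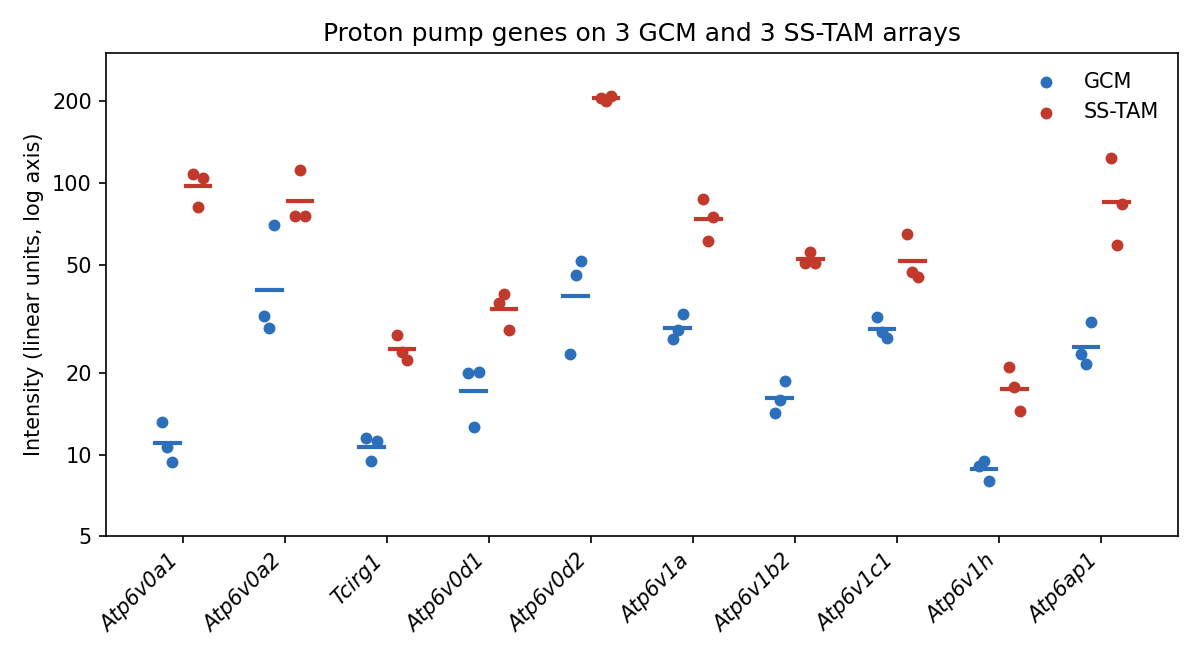
Intensity of the 10 proton pump genes on each array, on a log axis; points are arrays, and bars are geometric means of 3 SS-TAM (red) and 3 GCM (blue) arrays. For each gene the SS-TAM points lie above the GCM points, with the widest gap for *Atp6v0a1* and the narrowest for *Atp6v0a2* (75.1 against 69.7); heights of different genes are not comparable, and on a scale set by macrophage markers 6 of the 10 differences change sign.

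The widest difference was in a V0 a subunit. *Atp6v0a1* encodes the a1 isoform, best known from synaptic vesicles and also present in macrophages. Its intensity was 107.6, 81.5 and 104.2 in SS-TAM replicates 1 to 3, against 13.2, 10.7 and 9.4 in GCM replicates 1 to 3. The lowest SS-TAM array was thus 6.17 times the highest GCM array. The fold change was 8.83 (95% interval 6.68 to 11.67), or 3.14 ± 0.16 (SE) on the log2 scale, with limma adjusted p = 0.000852. This difference was larger than that of 99.94% of all genes. The GCM values were not far above the arrays' medians, 6.1 to 6.5, a range in which an array resolves differences poorly.

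*Tcirg1* encodes the a3 isoform, which is found on lysosomes and at the ruffled border of osteoclasts. It read 27.6, 23.8 and 22.2 in SS-TAMs and 11.5, 9.5 and 11.2 in GCMs. The groups were separate, with a log2 fold change of 1.19 ± 0.11 (limma adjusted p = 0.00379), a 2.28-fold difference. Here too the GCM values were not far above the arrays' medians.

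*Atp6v0a2*, the a2 isoform of Golgi and endosomal membranes, was the member that did not pass. Its brighter probe set read 75.1, 111.1 and 75.1 in SS-TAMs and 32.3, 29.1 and 69.7 in GCMs. GCM replicate 3 lay close to the tumor arrays and apart from the other GCM arrays. The log2 fold change was 1.09 ± 0.36 with a 95% interval of 0.19 to 1.98 (limma adjusted p = 0.133). Without GCM replicate 3 it was 1.48 (adjusted p = 0.0366). A second, dimmer probe set read 15.4, 11 and 10.3 in SS-TAMs and 10.3, 9 and 10.3 in GCMs, with a log2 fold change of 0.29 ± 0.16 (limma adjusted p = 0.3128 over all probe sets). The probe sets of this gene therefore gave differences of unlike size, neither of which passed.

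The d subunits both differed. *Atp6v0d2* encodes d2, an isoform abundant in osteoclasts and in macrophages that fuse or carry heavy lysosomal loads. It was at 205.7, 199.2 and 209 in SS-TAMs, the smallest relative spread among the 10 genes in that group, and at 23.5, 45.9 and 51.6 in GCMs. The log2 fold change was 2.42 ± 0.30 (limma adjusted p = 0.00794), or 5.36-fold with a 95% interval of 3.24 to 8.86. GCM replicate 1, which held the lowest value, was also the GCM array with the highest summed intensity of B cell markers (382, compared with 155.8 and 154.1 on the others), and the part of this in the result was not tested. Without that array the log2 fold change was 2.07 and remained called.

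*Atp6v0d1*, the ubiquitous d1 isoform, read 36, 39.1 and 28.6 in SS-TAMs and 19.9, 12.6 and 20.2 in GCMs. The difference was 2.00-fold, with a log2 fold change of 1.00 ± 0.22 (limma adjusted p = 0.0448). This was the call nearest the threshold among the 10, and leaving out any 1 of the 6 arrays brought the adjusted p to between 0.0721 and 0.119. Its promoter is one of the 2 shown above with TCACGTGA.

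In the V1 sector the catalytic hexamer is built of A and B subunits. *Atp6v1b2*, the B subunit isoform of most cells, read 50.7, 55.7 and 50.5 in SS-TAMs and 14.2, 15.9 and 18.6 in GCMs. Its log2 fold change was 1.70 ± 0.11 (limma adjusted p = 0.00135), a 3.24-fold difference. *Atp6v1a*, the A subunit that hydrolyzes ATP, read 87, 61.1 and 74.8 against 26.5, 28.7 and 33, a log2 fold change of 1.33 ± 0.15 (limma adjusted p = 0.00645). Both genes stood clear of the GCM range on every SS-TAM array, and both kept their call without any 1 array.

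The smaller V1 differences were in subunits of the stalk and its regulation. *Atp6v1c1*, the C subunit that is released when V1 leaves the membrane, read 64.5, 47.1 and 44.8 in SS-TAMs and 32, 28.3 and 26.9 in GCMs. The log2 fold change was 0.83 ± 0.16 (limma adjusted p = 0.0288), the smallest of the 10. *Atp6v1h*, the H subunit that stops ATP hydrolysis in free V1, read 21, 17.7 and 14.4 against 9.1, 9.5 and 8, with a log2 fold change of 0.98 ± 0.15 (limma adjusted p = 0.0157). The GCM values of *Atp6v1h* were not far above the arrays' medians. Neither call was kept once SS-TAM replicate 2 or any 1 GCM array was left out, with adjusted p up to 0.116 for *Atp6v1c1* and 0.0686 for *Atp6v1h*.

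*Atp6ap1* encodes Ac45, an accessory protein that assists V0 assembly and traffic. It had the widest SS-TAM range among the 10, at 123.3, 58.8 and 83.5, against 23.4, 21.5 and 30.6 in GCMs. The lowest SS-TAM array was still 1.92 times the highest GCM array. The log2 fold change was 1.77 ± 0.29 (limma adjusted p = 0.0188), and the call was lost without SS-TAM replicate 3 or any 1 GCM array (adjusted p up to 0.0879).

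Of the 9 calls, 5 were thus kept without any 1 array, those of *Atp6v0a1*, *Tcirg1*, *Atp6v0d2*, *Atp6v1a* and *Atp6v1b2*. The 10 genes ranked from *Atp6v0a1* and *Atp6v0d2* down to *Atp6v1c1*, but the 95% intervals of neighbors in that order overlapped, including those of *Atp6v0a1* (log2 2.74 to 3.54) and *Atp6v0d2* (1.70 to 3.15). Within the groups no array was the highest for all of the genes. SS-TAM replicate 1 was the highest SS-TAM array for 6 of the 10 and the lowest for 1. GCM replicate 3 was the highest GCM array for 6 of the 10 and the lowest for 3. The same counts over all genes are not given here, so no joint variation is read from these.

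The other subunits of the enzyme gave a different count. Of 16 measured, 3 were higher, none was lower and 13 did not pass, with a median log2 fold change of 0.14. Counted over the whole enzyme, 12 of 26 measured genes were higher, and 9 of these 12 were among the 10. Over all genes the share was 5.16%, or 8.42% with dim probe sets left out. The 10 and the other lists were chosen with earlier results of these data known, so neither count is free of that choice. By sector, 5 of 10 V0 genes, 5 of 13 V1 genes and 2 of 3 accessory genes were higher. The intensities of the 16 summed to between 649.6 and 740.2 in SS-TAMs and between 612.5 and 664.2 in GCMs, ranges that overlap. Those of the 10 summed to between 695.1 and 798.5 in SS-TAMs and to between 205.6 and 279.2 in GCMs.

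Among the other subunits that passed, *Atp6ap2*, the (pro)renin receptor and an accessory protein of the pump, read 35.8, 35.2 and 37.8 in SS-TAMs and 20, 21.1 and 21.1 in GCMs (log2 fold change 0.81, limma adjusted p = 0.00152). *Atp6v1e1*, an E subunit of the peripheral stalk, read 25.4, 30.8 and 26.5 against 15.8, 14.8 and 14.5 (0.87, limma adjusted p = 0.00452). *Atp6v0e2*, a small V0 e subunit, read 17.1, 13.3 and 17.2 against 11.2, 11.2 and 10.4 (0.53, limma adjusted p = 0.0427). The first 2 kept their call without any 1 array, and the last kept it in 1 of the 6 such fits. On the scale set by macrophage markers all 3 turned and were called lower, at log2 fold changes of -0.78, -0.71 and -1.05. Calls on that scale follow size alone, as given further on.

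Several ubiquitous subunits did not pass. *Atp6v0b*, the c'' subunit of the proteolipid ring, read 60.5, 64.6 and 71.2 in SS-TAMs and 30.3, 53.1 and 37.5 in GCMs, without overlap, at a log2 fold change of 0.74 (limma adjusted p = 0.0869). *Atp6v0e*, the common e subunit, was bright in both groups, at 206.5, 188.9 and 210 against 152.2, 188.3 and 188.3 (0.20, limma adjusted p = 0.281). After quantile normalization, where 4.9% of all genes were called higher, both passed, at log2 fold changes of 1.07 and 1.18.

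Of the other V1 subunits, the D and G1 subunits gave values near 0. *Atp6v1d*, the D subunit of the central rotor, read 46.5, 58.7 and 71.9 in SS-TAMs and 58.7, 61.4 and 55.7 in GCMs, a log2 fold change of -0.01. *Atp6v1g1*, a G subunit of the peripheral stalk, had a log2 fold change of -0.03, and 0.07 by its other probe set. *Atp6v1f*, the F subunit of the rotor, read 37, 107.1 and 68 against 121.5, 147 and 93.8, with a log2 fold change of -0.88 (limma adjusted p = 0.233) and of -0.26 by its other probe set. This was the lowest log2 fold change of the 26 genes, and the arrays of the groups overlapped. *Rnasek*, a V0 component, was at 0.49 (adjusted p = 0.321), *Atp6v1g2*, the neuronal G isoform, at 0.21 and *Atp6ap1l*, a gene related to *Atp6ap1*, at 0.25.

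The isoforms of kidney, epididymis, testis and other restricted tissues were dim in both groups. *Atp6v0a4*, *Atp6v1b1*, *Atp6v1c2*, *Atp6v1e2* and *Atp6v1g3* had intensities near the array medians on all 6 arrays, with log2 fold changes of 0.013 to 0.080, and none was called. At that level an array resolves differences poorly, so these values are no reference for the brighter subunits. *Atp6v0c*, the main subunit of the proteolipid ring, has no probe set annotated to it alone and was not analysed here.

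**Figure D2:**
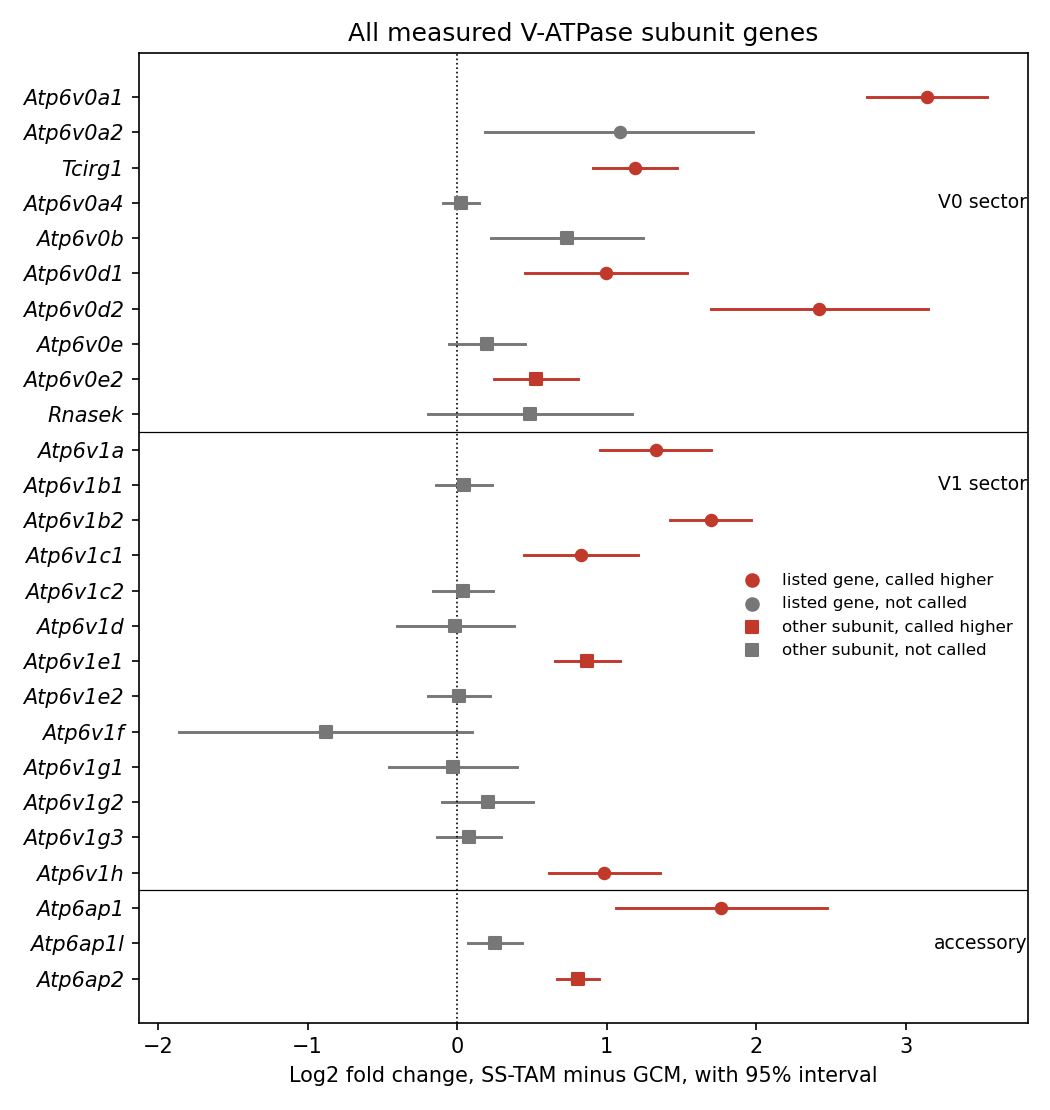
Difference on the log2 scale (SS-TAM minus GCM) with 95% interval for the 26 measured V-ATPase genes by sector; circles are the 10 listed genes and squares the other 16, in red where called higher and gray where not. Of the circles 9 are red and of the squares 3, and no gene is called lower. On a scale set by macrophage markers, where calls follow size alone, *Atp6v0a1* and *Atp6v0d2* alone of the 26 are called higher.

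Differences between genes within an array do not depend on how arrays are centered, and 4 pairs of isoforms or partner subunits were compared in this way. Only the change between groups is read, since a level cannot be set against that of another probe set. The log2 difference *Atp6v0a1* minus *Tcirg1* was 1.96, 1.78 and 2.23 in SS-TAMs and 0.20, 0.17 and -0.25 in GCMs. The a1 to a3 ratio was thus 3.87 times higher in SS-TAMs (log2 change 1.95), and the arrays of the groups did not overlap. In GCMs both genes lay not far above the arrays' medians, where differences are poorly resolved, so the size of this change is uncertain. *Atp6v0a1* minus *Atp6v0a2* changed by 2.06 on the log2 scale, with means of 0.18 ± 0.54 on tumor arrays and -1.88 ± 0.88 on GCM arrays (SD, n = 3). *Atp6v0d2* minus *Atp6v0d1* changed by 1.43, from 1.15 ± 0.83 to 2.58 ± 0.27 (SD, n = 3), and GCM replicate 1 stood apart at 0.24. *Atp6v1a* minus *Atp6v1b2* moved the other way and least, by -0.37, from 0.86 ± 0.04 to 0.49 ± 0.33. In each pair the groups did not overlap, and the two-sided exact permutation p was 0.1 for each, 0.1 after adjustment over the 4 pairs, which is the smallest that 3 arrays against 3 allow. Each change is the difference of log2 fold changes given above, and *Atp6v0a1* and *Atp6v0d2* were the most changed of the listed genes. The pairs thus describe the same values and are no separate result.

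**Figure D3:**
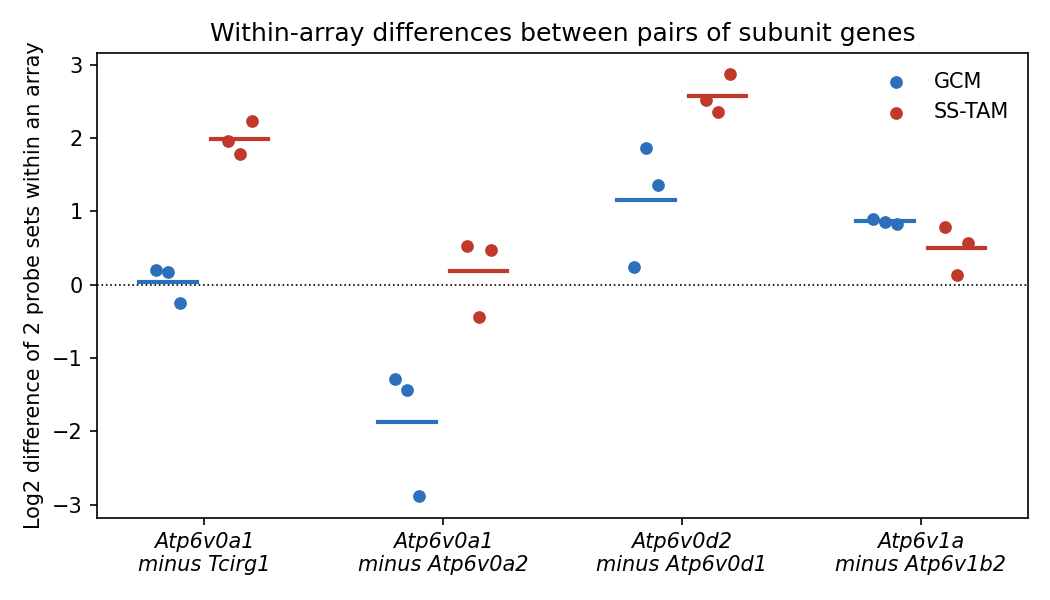
Log2 difference between the probe sets of a pair of subunit genes within each array; points are arrays, bars are means of 3, red SS-TAM and blue GCM. SS-TAM points lie above GCM points for the pairs with *Atp6v0a1* or *Atp6v0d2* first and below them for *Atp6v1a* minus *Atp6v1b2*; the height of a pair has no meaning by itself.

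The captured material differed between the groups in its markers. Of 22 measured core macrophage markers 15 were higher in SS-TAMs, and their summed intensity was 3318 to 4380 in SS-TAMs and 1278 to 1538 in GCMs. *Cd68*, the stained antigen, read 492.4 to 669.8 against 47.8 to 97.8, *Msr1* 75.6 to 135.8 against 5.1 to 8.8, and *Lyz2*, the brightest of the list, 508.2 to 656.6 against 339.6 to 462.7. T cell markers summed to 155.3 to 187.6 in SS-TAMs and 1168 to 1564 in GCMs, with 8 of 13 lower in SS-TAMs, and *Cd3g* was at 6.2 to 6.5 against 276.2 to 411.1. B cell markers summed to 88.6 to 100.6 against 154.1 to 382, with 2 of 10 lower. The tumor B cells were human, in mice that lack B lymphocytes, and the arrays were for mouse transcripts. The B cell sum in SS-TAMs is thus no measure of tumor cell material in the captures. Dendritic cell markers had 4 of 8 lower. Follicular dendritic cell and stromal markers had 3 of 6 lower and *Vcam1* higher. Fibroblast and pericyte markers summed to 637.7 to 1173 in SS-TAMs and 295.8 to 339.2 in GCMs, with 4 of 11 higher and *Sparc* the brightest. SS-TAM replicate 1, the highest SS-TAM array for 6 of the 10 pump genes, held the value of 1173. Erythroid markers had none called of 4. The part of these in the pump differences was not tested. In such bulk captures fewer cells of a type and less RNA per cell cannot be told apart.

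Osteoclast markers are given because d2 and a3 are used in that cell. Their sums overlapped (91.6 to 139.6 in SS-TAMs, 99.7 to 117.2 in GCMs), and 1 of 10 was called, *Ctsk*, the protease cathepsin K, with a log2 fold change of 2.37. *Acp5*, the tartrate-resistant phosphatase and the brightest of the list, read 45.3, 28.8 and 25.7 in SS-TAMs and 50.4, 43.6 and 60.3 in GCMs (log2 fold change -0.66, limma adjusted p = 0.155).

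Each array was also scaled to the mean of its core macrophage markers, which lowered the median log2 fold change of all genes to -1.54. On the deposited scale single markers ranged from -0.50 (*Cx3cr1*) to 4.08 (*Msr1*). The paper lists *Msr1* and *Mertk* among transcripts higher in SS-TAMs. The mean is therefore no measure of macrophage number in the captures. On the macrophage scale 98.7% of all genes were lower and 0.476% higher. Of the 10 pump genes 2 were higher, *Atp6v0a1* at a log2 fold change of 1.56 and *Atp6v0d2* at 0.84. *Atp6ap1* at 0.18 and *Atp6v1b2* at 0.11 were not called, nor were *Atp6v1a* at -0.25 and *Tcirg1* at -0.39. *Atp6v0a2* at -0.50, *Atp6v0d1* at -0.58, *Atp6v1h* at -0.60 and *Atp6v1c1* at -0.75 were called lower. Among the genes named here the adjusted p on that scale followed the size of the log2 fold change alone. A call there is thus a cutoff of size and does not test against a gene's own spread. The member median was -0.32, compared with -1.44 for the other 16 subunits. The a1 and d2 transcripts thus differed by more than the mean of the marker list. That mean includes markers near the arrays' medians in both groups, such as *Cd14* (0.03) and *Itgam* (0.15). It also includes brighter markers that were not called, such as *Aif1* (-0.09), *Lyz2* (0.57) and *Cx3cr1* (-0.50). Of the 22 markers 15 were called higher and 7 were not called. On the deposited scale *Msr1* (4.08) and *Adgre1* (4.07) exceeded both transcripts. *Cd68* (3.06), *Mertk* (2.90), *C1qb* (2.57) and *Fcgr1* (2.46) exceeded *Atp6v0d2* only, and the remaining markers lay below it. Of the 10 pump genes 6 had log2 values below 0 on the macrophage scale, 4 of them called. *Cd68* and *Csf1r*, both in the marker list, were used to choose cells.

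**Figure D4:**
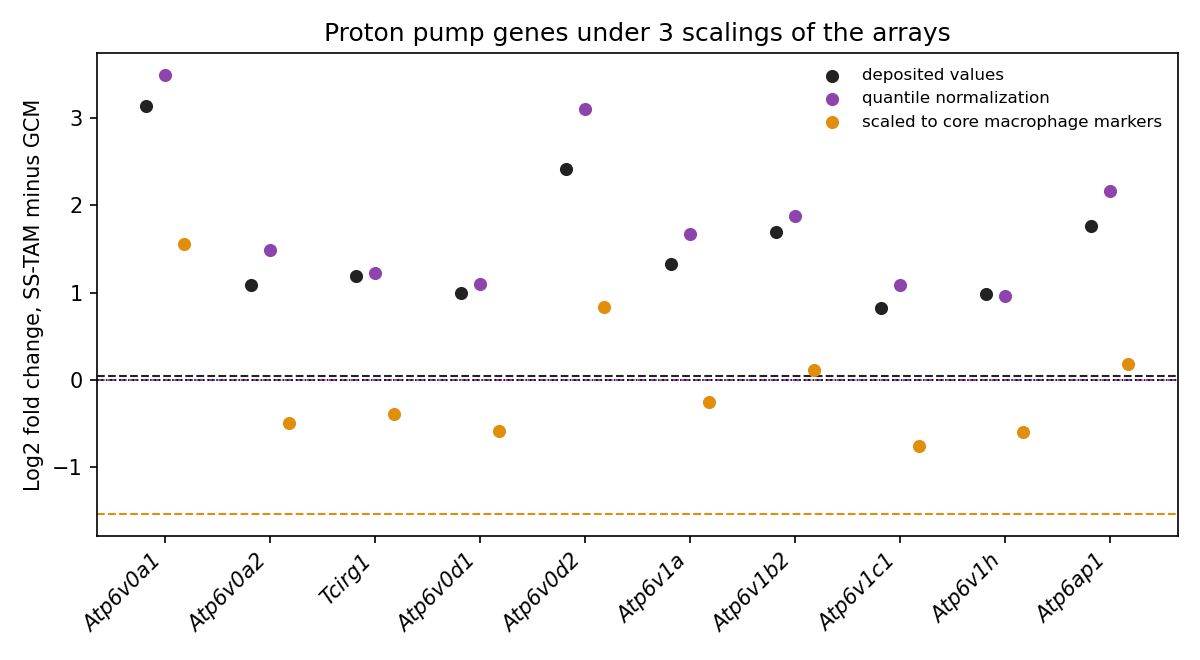
Change of the 10 genes (log2, SS-TAM minus GCM) under 3 scalings of the arrays; black are deposited values, purple quantile normalization and orange scaling to core macrophage markers, and dashed lines are the median of all genes under each. Quantile normalization leaves the 10 values between 0.97 and 3.49, whereas under macrophage scaling 4 are above 0 and 6 below, all above the orange line at -1.54.

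Factors that assemble or regulate the pump were measured for 11 genes. None was higher and 1 was lower, with a median log2 fold change of 0.12. The lower one was *Rogdi*, a subunit of the RAVE-like complex that rejoins V1 to V0, at 9.2, 9.2 and 10.1 in SS-TAMs and 14.7, 15.6 and 21.2 in GCMs (-0.84, limma adjusted p = 0.0238). It kept the call in 2 of the 6 fits that left out 1 array (adjusted p up to 0.0779).

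Channels and exchangers that share the lysosomal membrane with the pump were measured for 14 genes, of which 5 were higher and none lower (median log2 fold change 0.33). *P2rx4*, an ATP-gated cation channel held in lysosomes, read 59.9, 52.5 and 82.2 in SS-TAMs and 11.8, 16.7 and 14.9 in GCMs (2.15, limma adjusted p = 0.00372). *Mcoln1*, the calcium channel TRPML1, was at 1.48 (limma adjusted p = 0.0328). *Clcn5*, an endosomal chloride-proton exchanger, was at 1.01 (0.0017), and *Ostm1*, the partner protein of the lysosomal exchanger ClC-7, at 0.97 (0.0109). *Tpcn1*, an endolysosomal cation channel named here after its values were seen, was at 0.79 (0.0178). *P2rx4* and *Clcn5* kept their call without any 1 array, and the other 3 lost it in some such fits (*Ostm1* in 2 of 6, *Mcoln1* in 4 and *Tpcn1* in 5). On the macrophage scale *P2rx4* remained higher, at 0.57, and the others turned, to -0.11 for *Mcoln1*, which was not called, and to -0.57 for *Clcn5*, -0.62 for *Ostm1* and -0.79 for *Tpcn1*, which were called lower.

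The Ragulator complex and the Rag GTPases bind the pump at the lysosome and bring mTORC1 there. Of 13 measured genes 3 were higher and 1 lower. *Fnip1* and *Fnip2*, which encode partners of folliculin, had log2 fold changes of 0.89 and 0.81, and *Rragd*, a Rag GTPase, 0.42. *Lamtor2*, a Ragulator subunit, read 37.8, 24.9 and 39.6 in SS-TAMs and 113, 72.8 and 90.4 in GCMs (-1.44, limma adjusted p = 0.0192). Its call was lost without GCM replicate 1 or 3 (adjusted p up to 0.0799), and *Rragd* kept its call in 2 of the 6 fits without 1 array. On the macrophage scale the 3 higher genes turned and were called lower, at -0.70 for *Fnip1*, -0.77 for *Fnip2* and -1.17 for *Rragd*.

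The genes most like the pump genes were found from the Pearson correlation, over the 6 arrays, with the mean log2 intensity of the 10, among 2343 genes with a mean intensity of at least 20. These were *Tmbim6* (r = 0.99938), a membrane protein of the endoplasmic reticulum, *Slc29a3* (0.99814), a lysosomal nucleoside transporter, *Hexa* (0.99635), a lysosomal hexosaminidase, *Ccl6* (0.99545), a chemokine, and *Myo10* (0.99543), an unconventional myosin. The arrays fall into 2 groups, so that any gene separating them scores high, and the values are a description. *Hexa* read 315.1, 242.2 and 285 in SS-TAMs and 44, 38 and 51.3 in GCMs. *Tmbim6* read 127.7, 111.6 and 107.3 against 50.2, 47.9 and 56.4.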

How the data were processed

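RNA of 1000 laser-captured cells per tissue was amplified, labeled and hybridized to whole-transcript mouse arrays, 3 per group. The authors deposited linear intensity values with 1 decimal for each of 28944 probe sets. RMA, which corrects, normalizes and summarizes probes, and limma are named in the submitters' processing notes, with versions not given in the sources used here. RMA normally equalizes arrays, but the 99th percentile ranged from 241.5 to 283.7 in SS-TAMs and from 613.8 to 663.8 in GCMs (medians 6.1 to 6.5), so other scalings were tried.

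The log2 of the deposited intensity was used throughout. Probe sets naming 1 gene in the platform annotation (21789) gave 19938 genes, each represented by its brightest probe set, and 21698 of those probe sets matched a RefSeq gene ID. The comparison of groups used lmFit and eBayes of limma 3.58.1 (R 4.3.3; two-sided, no covariate), with Benjamini-Hochberg adjustment over all genes and a threshold of 0.05. Folds are ratios of geometric means, intervals are 95% and promoter counts were made in Python 3.11.15. The number of arrays limits the precision, and no detection calls were used. The procedure was also run on simulated data with independent normal noise of equal spread in both groups. Estimated array weights of the real data were unequal, at 0.4162 to 0.5701 in SS-TAMs and 1.835 to 2.528 in GCMs. That run is therefore no support for the calls made here.

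Named genes were all pump genes, up to 4 called genes per other list by size (or the 2 brightest) and the 5 most correlated genes, and of each marker list the brightest and most changed, not all of which are printed. The members and lists were chosen with earlier results of these data known. Of the list genes 13 had no probe set of their own. A comparison of protein sequences was not run. Alternatives were other scalings, probe set choices, fits and thresholds, a replicate block and leaving out each array.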

Additional observations from a re-analysis of the deposited data

How the results depend on the processing

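Over 41 named genes and their alternatives, 462 of 571 log2 fold changes kept their direction and side of the threshold, 54 lost a call, 7 gained one and 48 changed sign, 28 of these on the scale of core macrophage markers. The cause was not tested, except that this scale by its making lowers every log2 fold change by the mean of the marker list, 1.58. Depth cannot be judged from intensities, and 3 arrays per group limit the precision.

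On the macrophage scale 2 pump genes of the 10 were called higher and 4 lower, and 0 of the other subunits higher and 16 lower, with 95 genes higher and 19683 lower in all. As said above, these calls follow the size of the log2 fold change and not a gene's own spread. The log2 fold changes that changed sign there were -0.50 for Atp6v0a2, -0.39 for Tcirg1, -0.58 for Atp6v0d1, -0.25 for Atp6v1a, -0.75 for Atp6v1c1 and -0.60 for Atp6v1h. Among other subunits they were -1.56 for Atp6v0a4, -0.85 for Atp6v0b, -1.38 for Atp6v0e, -1.05 for Atp6v0e2, -1.10 for Rnasek, -1.54 for Atp6v1b1, -1.54 for Atp6v1c2, -0.71 for Atp6v1e1, -1.57 for Atp6v1e2, -1.38 for Atp6v1g2, -1.50 for Atp6v1g3, -1.33 for Atp6ap1l and -0.78 for Atp6ap2. Elsewhere they were -0.11 for Mcoln1, -0.57 for Clcn5, -0.62 for Ostm1, -0.79 for Tpcn1, -0.70 for Fnip1, -0.77 for Fnip2, -1.17 for Rragd, -0.42 for Tmbim6 and -0.71 for Slc29a3.

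After quantile normalization 9 pump genes and 5 other subunits were higher, with 977 genes higher and 854 lower in all, and Atp6v0a1 minus Tcirg1 changed by 2.27. Values near 0 changed sign, to -0.035 for Atp6v0a4, -0.023 for Atp6v1c2, 0.34 for Atp6v1d, -0.0501 for Atp6v1e2 and 0.53 for Atp6v1g1, and after median centering to -0.036 for Atp6v0a4, -0.015 for Atp6v1b1, -0.022 for Atp6v1c2 and -0.049 for Atp6v1e2. The mean of probe sets gave 0.022 for Atp6v1g1 and array weights 0.030 for Atp6v1d. Array weights also lost the calls of Atp6v0d1 (adjusted p = 0.143) and Rogdi (0.1007). Atp6v0e2 lost its call after median centering (0.0598) and with an intensity trend (0.0507). With a fold of at least 2 required, 6 pump genes and 0 other subunits were higher, and 279 genes were higher and 470 lower. At an adjusted p under 0.01, 5 pump genes were higher, and 265 genes were higher and 331 lower.

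Nothing in the labels says that equal replicate numbers pair the arrays, and correlations of same-numbered deviations were low (0.0904, 0.087 and 0.0192). Each array did correlate best with the array of its own number, which is a hint from the data and not the design. With a replicate block 8 pump genes were higher (Atp6v0d1 lost, adjusted p = 0.105), Atp6v0e2 (0.0918) and Rragd (0.0582) lost their call, and 611 genes were higher.

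Leaving out 1 array gave 5 to 8 pump genes higher, with 5 without GCM replicate 1 or GCM replicate 2. Over all genes, 271 to 1159 were higher and 399 to 796 lower, the counts falling to 348, 271 and 303 higher without GCM replicates 1, 2 and 3. Log2 fold changes that changed sign ranged from -0.015 to 0.099 for Atp6v1b1, -0.038 to 0.090 for Atp6v1c2, -0.16 to 0.15 for Atp6v1d, -0.060 to 0.050 for Atp6v1e2, -0.12 to 0.14 for Atp6v1g1 and -0.0076 to 0.12 for Atp6v1g3. No alternative changed the sign of the 4 pair differences.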
